A study of Danio rerio with 6 samples.

Results

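Neurotransmitter receptor genes encode the proteins with which a neuron or a muscle fibre detects the transmitter that a neighbouring cell releases. They were followed here in zebrafish embryos that lack *hoxb1b* function. Members were chosen by symbol: every row of the count table whose name begins like that of a glutamate, GABA, glycine, acetylcholine, serotonin or dopamine receptor was taken, which gave 63 of the 13466 genes. One of these matches by its name alone and encodes no receptor. Of the other 62, 6 encode subunits of the acetylcholine receptor of skeletal muscle and were set apart, and 56 are referred to as neural receptor genes. RefSeq (assembly GRCz12tu) lists 146 protein coding genes whose symbols fit the same rule, of which 65 had a row here, 2 of them under a name outside the rule. The remainder were not analysed here. All 8 AMPA receptor genes, all 6 muscle subunits and 6 of 7 glycine receptor genes of that annotation were listed, against 6 of 23 GABA-A and 7 of 22 serotonin receptor genes.

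The data are bulk RNA-seq of the whole embryo at 18hpf, without its yolk, and compare 3 libraries of wildtype control embryos with 3 libraries of homozygous *hoxb1b*-/- mutants that carry the um197 allele. RNA came from pools of embryos of unstated size, and no treatment was given to either group. *hoxb1b* is a paralog group 1 *hox* gene that acts in the early hindbrain.

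Transmitter receptors fall into a pair of large groups. Ionotropic receptors are channels built from several subunits around a pore, and they open within milliseconds of binding glutamate, GABA, glycine or acetylcholine. Metabotropic receptors act more slowly, through G proteins. At the stage sampled here the first neurons of the zebrafish hindbrain and spinal cord extend axons, and the first axial muscle fibres begin to twitch under spinal motor neuron input. Muscle fibres carry a nicotinic acetylcholine receptor of their own. In mammals it has 5 subunits drawn from alpha1, beta1, delta and either gamma or epsilon.

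Library totals lay between 19139322 and 29146812 estimated reads, of which the 63 members held 3468 to 6524 per library. Expression is given as CPM, the reads of a gene per 1000000 reads of the TMM-normalized library size, so that 3 reads correspond to 0.101 to 0.154 CPM. A gene was tested if it passed edgeR's filter for low counts, and 12471 genes did. Log2 fold changes are mutant over wildtype, from edgeR's quasi-likelihood test, and every adjusted p in this text is the Benjamini-Hochberg value over all tested genes unless another tool is named. A gene passed both criteria if its adjusted p was under 0.05 and its fold change above 2. The variation between libraries of one genotype beyond counting noise was 1.85%. Whether each library was made from its own pool is not stated, so the p-values measure only the spread between these libraries, which may be technical. Genotype, pool and small differences in stage cannot be told apart. *hoxb1b* itself had 66.4 to 70.6 CPM in wildtype and 83.8 to 85.3 CPM in mutant libraries, so its transcript level was not lower in the mutants (log2 fold change 0.29, adjusted p = 8.71e-09) and does not check the labels.

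Neural receptor genes were mostly lower in the mutants. Of the 36 that were tested, 15 passed both criteria with lower expression and 1, *chrm5a*, with higher expression. Over all tested genes 8.36% passed both criteria, 6.66% with lower and 1.7% with higher expression. Summed over all 56 genes, expression was 72.3, 78.9 and 74.7 CPM in the wildtype and 47.2, 47.1 and 43.8 CPM in the mutant libraries, which did not overlap. By adjusted p alone, 20 of the 36 were lower and 2 were higher, where 33.6% and 32.6% of all tested genes were, 66.2% in all. The genotypes did not overlap for 22 of the 36, 19 lower and 3 higher, and for 68.1% of all tested genes. The median log2 fold change of the 36 genes was -0.76, and that of all tested genes was -0.0034. These genes have few reads, with mean levels of 0.298 to 4.65 CPM, and larger fold changes were more frequent among such genes than over the whole table. Of the 2913 tested genes in that range, 21.5% passed both criteria, 17.1% with lower and 4.33% with higher expression. By adjusted p alone 38.9% of them were lower and 15.3% higher, and their median log2 fold change was -0.25. Channel subunits made up 22 of the 36, and 11 of these passed both criteria, all lower, against 4 lower and 1 higher among the 14 receptors that couple to G proteins.

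**Figure D1:**
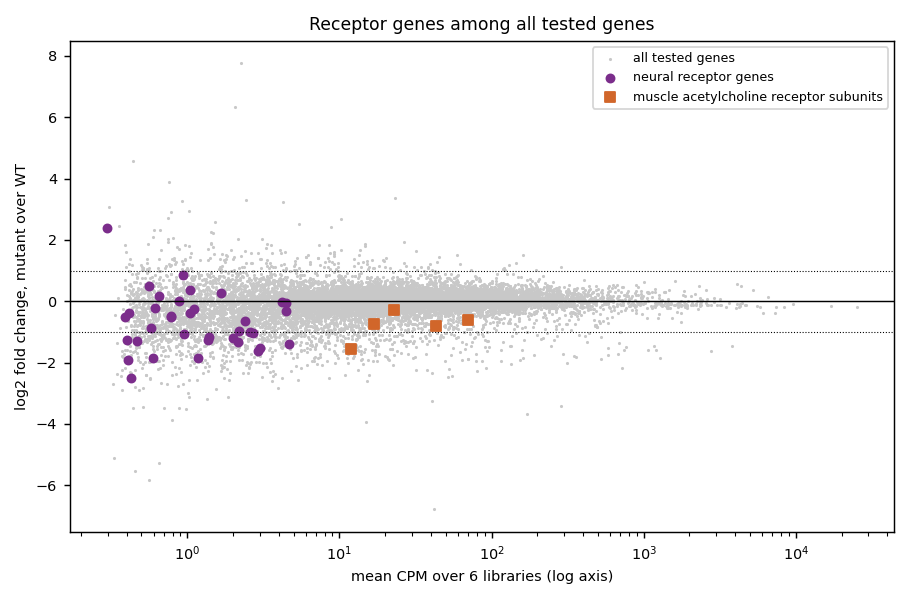
Log2 fold change (mutant over wildtype) against the mean CPM over 6 libraries on a log axis, for all 12471 tested genes (grey), the 36 tested neural receptor genes (purple circles) and the 5 tested muscle subunits (orange squares). Dotted lines mark a 2-fold change. The neural receptor genes sit at the low end of expression and mostly under 0, and the muscle subunits lie at higher levels and all under 0.

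The filter itself favours some of these genes. It asks for about 0.436 CPM in 3 libraries, and *gabrz*, *glrba*, *drd2b* and *drd4a* met that level in every wildtype library and in no mutant library. They could enter the test only through the genotype in which they were high, and *chrm5a* entered only through the mutants. Among the 24 neural genes at that level in all 6 libraries, 9 passed both criteria, all with lower expression. The share over all genes at that level in all 6 libraries was not computed, so this count has no matching background. Direction can be given for all 56 genes without the filter: the mean CPM was lower in the mutants for 47 and higher for 9. It was lower for 51.5% of all 13466 rows.

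**Figure D2:**
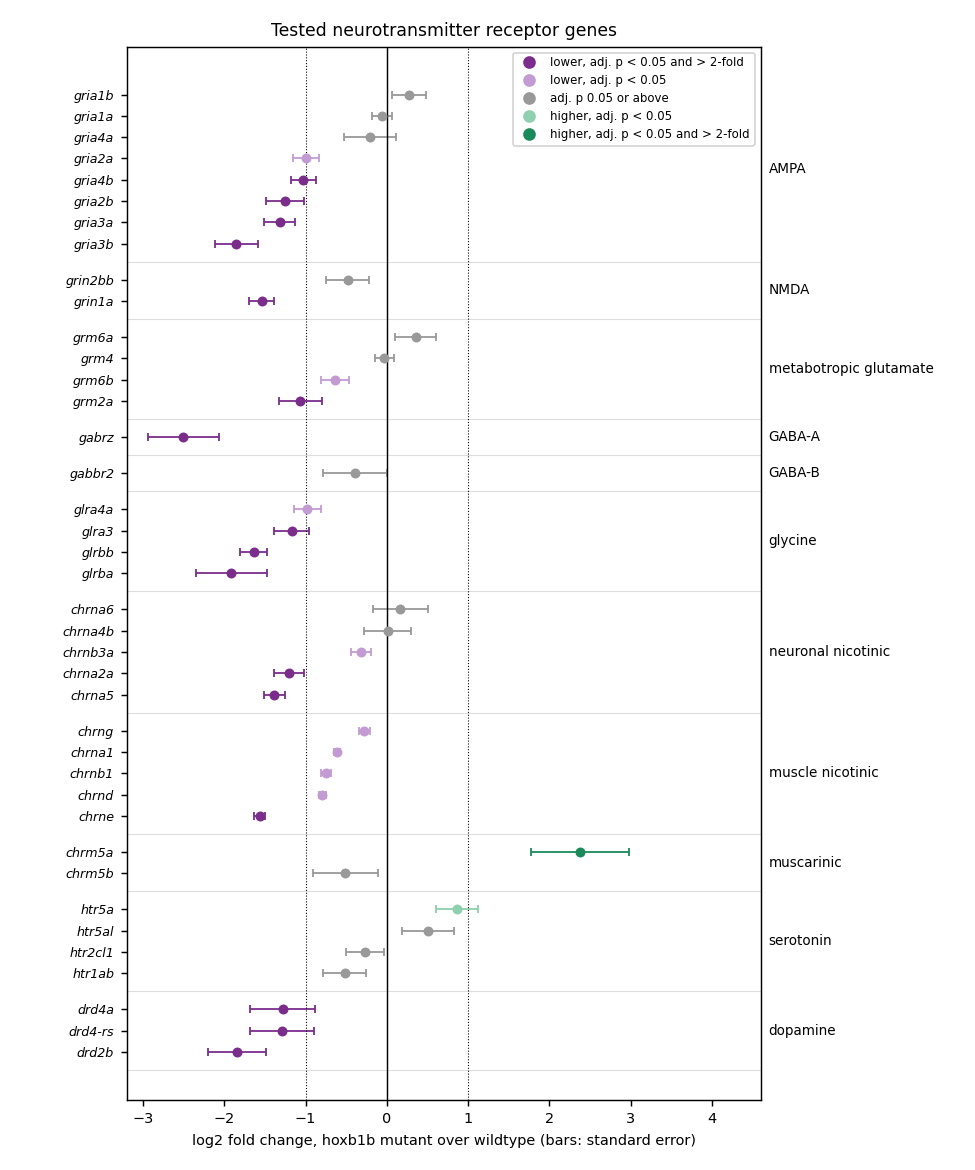
Log2 fold change (mutant over wildtype, x axis) with its standard error for 39 of the 41 tested receptor genes, grouped by receptor class. Dark points passed both criteria, light points had an adjusted p under 0.05 only, and grey points did not reach it. Most points lie to the left of 0, and every glycine, dopamine and muscle nicotinic gene does.

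AMPA receptors carry most fast excitatory transmission, and their channels are assembled from the subunits GluA1 to GluA4, each encoded by a pair of genes in zebrafish. The changes differed between subunits. Both *gria3* genes, *gria2b* and *gria4b* passed both criteria with lower expression, and *gria2a* lay just under a 2-fold change. *gria3b* had 1.79, 1.54 and 2.15 CPM in wildtype libraries 1 to 3 and 0.772, 0.474 and 0.338 CPM in mutant libraries 1 to 3. The genotypes did not overlap, and edgeR gave a log2 fold change of -1.85 with a standard error of 0.27 (adjusted p = 6.28e-07, and 0.0126 against a null of 2-fold). Its paralog *gria3a* stood at 3.84, 2.91 and 2.56 CPM in wildtype and at 1.03, 1.12 and 1.52 CPM in mutant libraries. Every mutant library was again under every wildtype one (log2 fold change -1.31, standard error 0.19, adjusted p = 7.2e-07).

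GluA2 is the subunit that keeps AMPA channels largely closed to calcium in mammals. *gria2b* had 1.75, 2.16 and 1.85 CPM in wildtype and 0.978, 0.517 and 0.912 CPM in mutant libraries (log2 fold change -1.25, standard error 0.23, adjusted p = 2.46e-05). *gria2a* had 3.50, 3.39 and 3.44 CPM against 1.34, 1.81 and 1.93 CPM (log2 fold change -0.99, standard error 0.16, adjusted p = 2.76e-06). Its groups were separate too, and it passed 2-fold without wildtype replicate 2 (-1.01), mutant replicate 2 (-1.02) or mutant replicate 3 (-1.11). *gria4b* lay on the other side of the same threshold, from 3.37, 3.88 and 3.64 CPM to 2.06, 1.85 and 1.52 CPM (log2 fold change -1.03, standard error 0.15, adjusted p = 1.27e-06). It fell short of 2-fold without wildtype replicate 2 (-0.97), without mutant replicate 3 (-0.89) and with total count scaling (-0.98), so *gria2a* and *gria4b* cannot be ranked by this limit.

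GluA1 genes did not follow. *gria1a* had 4.05, 4.89 and 4.56 CPM in wildtype and 4.48, 4.91 and 3.71 CPM in mutant libraries, which overlap fully (log2 fold change -0.06, standard error 0.12, adjusted p = 0.687). For *gria1b* the values were 2.01, 1.32 and 1.13 CPM against 2.01, 1.55 and 1.93 CPM (log2 fold change 0.28, standard error 0.21, adjusted p = 0.244). *gria4a*, with 0.469 to 0.838 CPM over all 6 libraries, also overlapped (log2 fold change -0.21, adjusted p = 0.587). The 8 genes together had 390 to 487 reads in wildtype and 255 to 365 in mutant libraries. Within these reads the *gria1* pair took 29.2%, 29.7% and 28.5% in wildtype libraries and 49.4%, 49.6% and 45.8% in mutant libraries. The *gria3* pair held 27.1%, 21.3% and 23.6% of AMPA reads in wildtype and 13.7%, 12.3% and 15.1% in mutants. Such shares do not depend on how libraries were scaled, and they show that the AMPA genes did not change by a common factor. This comparison was chosen after the values were seen and is given without a test.

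**Figure D3:**
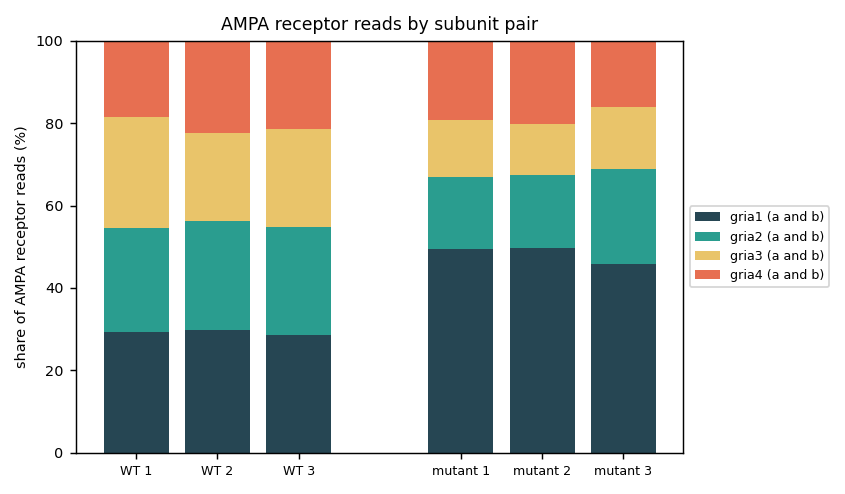
Share of all reads on the 8 AMPA receptor genes (y axis, percent) that falls on each subunit pair, for each of the 6 libraries (x axis). The *gria1* share is 28.5% to 29.7% in wildtype and 45.8% to 49.6% in mutants, and the *gria3* share is smaller in every mutant library than in any wildtype library. Shares of different subunits within a library are not corrected for transcript length.

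NMDA receptors need GluN1 in every channel. *grin1a*, which encodes GluN1, fell from 4.05, 4.98 and 4.36 CPM in wildtype libraries to 1.24, 1.64 and 1.65 CPM in mutant libraries. No libraries of the genotypes overlapped, and the fitted change was -1.54 on the log2 scale with a standard error of 0.15 (adjusted p = 8.21e-10). It was one of 6 members for which a change of no more than 2-fold was rejected with edgeR's glmTreat (adjusted p = 0.00603), as it was for 4.03% of all tested genes. *grin2bb*, a GluN2B gene, had 0.769 to 1.01 CPM in wildtype and 0.560 to 0.777 CPM in mutant libraries and missed the adjusted p (log2 fold change -0.48, standard error 0.27, adjusted p = 0.115).

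Of 4 tested metabotropic glutamate receptor genes, 2 were lower by adjusted p and the others did not pass the test. *grm2a*, of the group that lowers cyclic AMP through Gi proteins, had 1.41, 1.01 and 1.44 CPM in wildtype and 0.772, 0.646 and 0.473 CPM in mutant libraries. Its groups did not overlap (log2 fold change -1.06, standard error 0.26, adjusted p = 0.000869). The change was under 2-fold without wildtype replicate 1 (-0.98), wildtype replicate 3 (-0.98) or mutant replicate 3 (-0.86). *grm6b* was lower by adjusted p only, at 2.56 to 3.26 CPM against 1.52 to 2.24 CPM (log2 fold change -0.63, adjusted p = 0.00168). Its paralog *grm6a* had a log2 fold change of 0.35 with overlapping groups (adjusted p = 0.221). *grm4* was level, at 3.84 to 4.82 CPM in wildtype and 3.95 to 4.53 CPM in mutant libraries (log2 fold change -0.03, standard error 0.12, adjusted p = 0.852), with a sign that changed under total count scaling (0.017).

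Glycine receptors mediate fast inhibition in the spinal cord and hindbrain. Their channels combine ligand-binding alpha subunits with a beta subunit that binds the scaffold protein gephyrin. Each of the 4 tested genes fell. Of these 4, the beta subunit genes had the larger log2 fold changes, an order that was not tested. *glrbb*, the gene mutated in the zebrafish *bandoneon* swimming mutant, had 4.18, 4.67 and 4.26 CPM in wildtype and 1.49, 1.81 and 1.01 CPM in mutant libraries. The lowest wildtype library stood at more than the highest mutant library, and the fitted change was -1.64 on the log2 scale with a standard error of 0.17 (adjusted p = 1.2e-09, and 0.00276 against a null of 2-fold). *glrba* had 11, 19 and 12 reads against 2, 7 and 3 (log2 fold change -1.91, standard error 0.44, adjusted p = 0.000366). It passed the filter only through wildtype, and its value rests on so few mutant reads that it was -2.58 without mutant replicate 2. Among the alpha subunits, *glra3* had 1.66, 1.98 and 2.21 CPM against 0.721, 0.948 and 0.878 CPM (log2 fold change -1.17, standard error 0.22, adjusted p = 2.55e-05). *glra4a* had 2.99, 2.69 and 3.02 CPM against 1.39, 1.68 and 1.35 CPM (log2 fold change -0.98, standard error 0.17, adjusted p = 9.22e-06). It passed 2-fold without wildtype replicate 2 (-1.03) or mutant replicate 2 (-1.08). All 4 tested genes were separate between genotypes, as 34.5% of all tested genes were in this direction. The untested *glra1* had 9, 7 and 8 reads in wildtype and also 9, 7 and 8 in mutant libraries. The untested *glra4b* had 5, 5 and 3 reads against 6, 0 and 6. Both of these untested genes overlapped between genotypes.

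GABA-A receptors were thinly covered. *gabrz*, listed as a GABA-A receptor subunit, had 23, 12 and 13 reads in wildtype and 2, 4 and 3 reads in mutant libraries. In CPM that is 0.981, 0.529 and 0.667 against 0.103, 0.172 and 0.101, without overlap. On the log2 scale the change was -2.50 with a standard error of 0.43 (adjusted p = 1.16e-05, and 0.0073 against a null of 2-fold), but it passed the filter only through wildtype. The GABA-B receptor gene *gabbr2* had 5 to 11 reads in every library, and its log2 fold change of -0.39 (adjusted p = 0.394) was 0.037 without mutant replicate 3.

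Neuronal nicotinic receptors are acetylcholine-gated channels of neurons. *chrna5*, an accessory alpha subunit, had 5.76, 7.89 and 6.51 CPM in wildtype and 2.73, 2.28 and 2.70 CPM in mutant libraries. The genotypes were widely separated, by -1.38 on the log2 scale with a standard error of 0.13 (adjusted p = 2.88e-10, and 0.0235 against a null of 2-fold). *chrna2a* had 2.13, 3.13 and 3.13 CPM against 1.18, 1.21 and 1.22 CPM (log2 fold change -1.20, standard error 0.19, adjusted p = 2.75e-06). The mutant libraries were nearly equal, and the spread lay in wildtype. The other tested subunits had smaller fold changes. *chrnb3a* had 4.54 to 5.08 CPM in wildtype and 3.48 to 4.74 CPM in mutant libraries, which overlap (log2 fold change -0.32, standard error 0.12, adjusted p = 0.0254). *chrna4b* and *chrna6* had log2 fold changes of 0.01 (adjusted p = 0.975) and 0.17 (adjusted p = 0.674), with 13 to 23 and 5 to 24 reads per library.

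**Figure D4:**
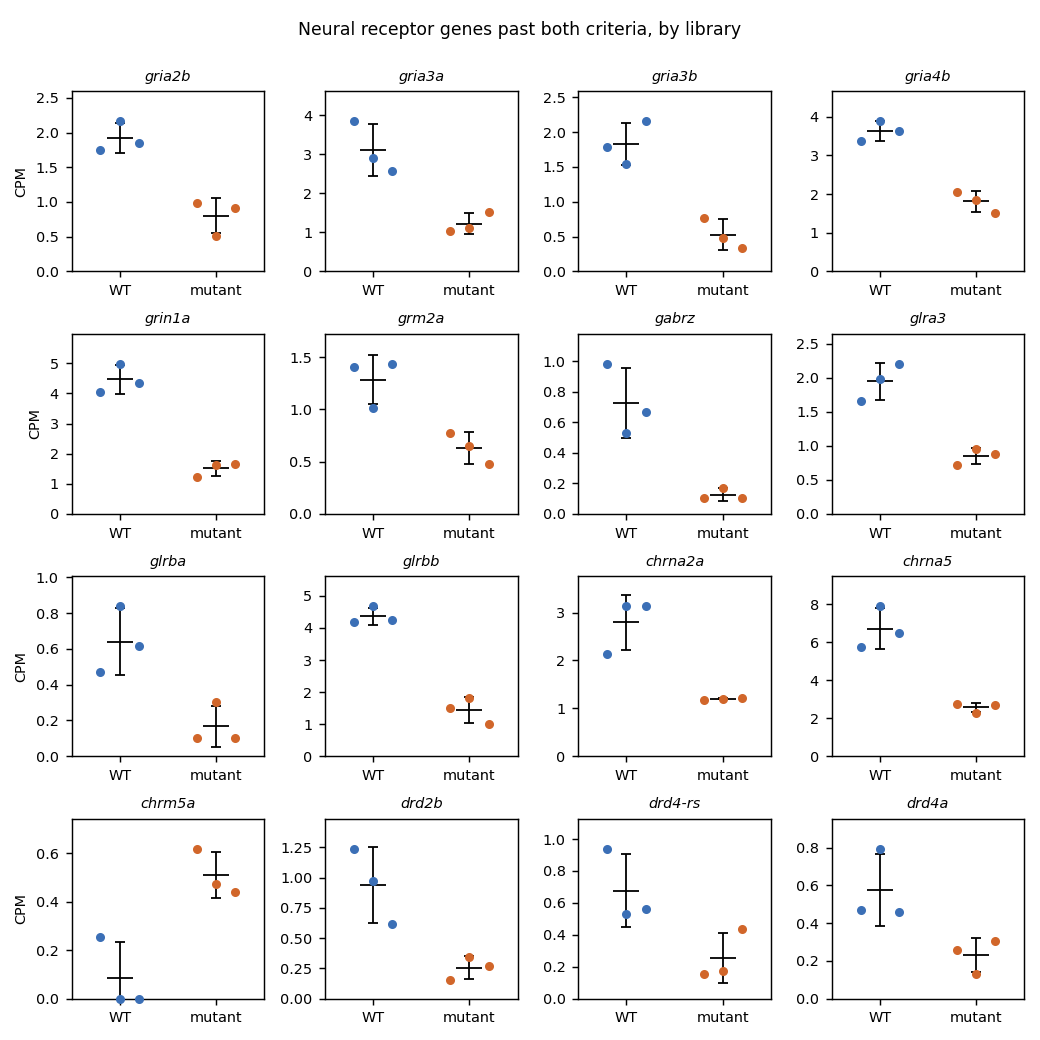
CPM by library (points) with mean and SD (black bars) for the 16 neural receptor genes past both criteria, each on its own linear axis from 0, with wildtype (WT) in blue and mutant in orange. In 15 genes all mutant points lie under all wildtype points, and in *chrm5a* they lie over them.

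Dopamine receptors of the D2-like family, which inhibit adenylyl cyclase, supplied 3 genes past both criteria, each from few reads. These 3 were the only dopamine receptor genes tested, and 8.36% of all tested genes passed both criteria. *drd2b* and *drd4a* passed the filter only through wildtype, and *drd4-rs* reached its level in only 1 mutant library. The filter thus favoured genes that were high in wildtype, and the 3 do not show how often such genes fall. *drd2b* had 29, 22 and 12 reads in wildtype and 3, 8 and 8 in mutant libraries (log2 fold change -1.84, standard error 0.36, adjusted p = 4.9e-05). *drd4-rs* had 22, 12 and 11 reads against 3, 4 and 13 (log2 fold change -1.29, adjusted p = 0.00515). It was -0.97 and no longer past the adjusted p without wildtype replicate 1 (adjusted p = 0.0685), and -2.02 without mutant replicate 3. *drd4a* had 11, 18 and 9 reads against 5, 3 and 9 (log2 fold change -1.28, adjusted p = 0.00661), and without wildtype replicate 2 it was -0.97 (adjusted p = 0.074). DESeq2 gave *drd4a* an adjusted p of 0.0543. Summed over all 8 listed dopamine receptor genes, tested or not, the level was 3.50, 3.39 and 2.92 CPM in wildtype. In mutants it was 1.34, 1.08 and 1.59 CPM, without overlap. Much of the wildtype sum (mean 3.27 CPM) came from *drd2b*, *drd4-rs* and *drd4a*, with means of 0.941, 0.677 and 0.575 CPM. The sum thus largely repeats these 3 genes. The mutant mean was the lower one for all 8, and 4 of the 8 were without overlap.

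Serotonin receptors did not share this direction. *htr5a*, which RefSeq names *htr5aa*, rose from 0.640, 0.573 and 0.821 CPM in wildtype to 0.927, 1.38 and 1.32 CPM in mutants. All mutant libraries were above all wildtype ones, as for 33.7% of tested genes (log2 fold change 0.87, standard error 0.26, adjusted p = 0.00436). It reached 1.01 without wildtype replicate 3. The related *htr5al* (*htr5ab* in RefSeq) was also separate in this direction, with 0.341 to 0.529 CPM against 0.603 to 0.772 CPM, but missed the adjusted p (log2 fold change 0.51, adjusted p = 0.169). *htr1ab*, a gene of the Gi-coupled 5-HT1A type, was separate the other way, at 0.768 to 1.01 CPM against 0.608 to 0.689 CPM. It too missed the adjusted p (log2 fold change -0.52, adjusted p = 0.0905). *htr2cl1* overlapped (log2 fold change -0.27, adjusted p = 0.329). Of the 7 listed genes, tested or not, 2 were lower and 2 higher without overlap, against 33.6% and 31.7% of all 13466 rows. The mutant mean was lower for 4 and higher for 3. The 7 listed serotonin receptor genes summed to 3.59, 4.06 and 4.26 CPM in wildtype and 3.55, 4.39 and 3.98 CPM in mutants, with full overlap.

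*chrm5a*, an M5-type muscarinic receptor gene, was the one neural receptor past both criteria in the other direction. It had 6, 0 and 0 reads in wildtype and 12, 11 and 13 in mutant libraries, or 0.256, 0 and 0 CPM against 0.618, 0.474 and 0.439 CPM. The fitted change was 2.38 on the log2 scale with a standard error of 0.60 (adjusted p = 0.00102), and wildtype replicate 1 set its size, since it was 6.53 without that library and 1.80 without wildtype replicate 2. With DESeq2 the adjusted p was 0.0886. Its paralog *chrm5b* had 5 to 13 reads per library and a log2 fold change of -0.51 (adjusted p = 0.265).

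A further 20 neural receptor genes and the muscle gene *chrnb1l* did not pass the filter, with 0 to 17 reads in any library. In 18 of these 20 neural genes the mutant mean was the lower one, and in 7 every mutant library was under every wildtype library. The second count, 35% of the 20, is near the 33.6% found over all 13466 rows and shows nothing particular to these genes. Their reads were few, as in *grm8b*, a metabotropic glutamate receptor gene, with 13, 9 and 8 reads in wildtype and 4, 7 and 6 in mutants. The serotonin receptor gene *htr1aa* had 8, 7 and 12 reads against 1, 4 and 7. Such differences were not tested. A pair of rows outside the rule carry RefSeq symbols that fit it. One, *grm2b* in RefSeq, had a log2 fold change of -0.29 (adjusted p = 0.0102), and the other, *chrna11*, had -0.34 (adjusted p = 0.418).

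The muscle acetylcholine receptor subunits have many more reads, and each of the 5 tested ones was lower in the mutants by adjusted p, with no overlap between genotypes. Of all tested genes, 33.6% were lower by adjusted p and 34.5% were without overlap in this direction. Among the 5, only *chrne* changed by more than 2-fold. *chrna1*, the alpha1 subunit that binds acetylcholine, had 83.6, 81.5 and 87.3 CPM in wildtype and 56.6, 55.7 and 53.3 CPM in mutant libraries (log2 fold change -0.61, standard error 0.04, adjusted p = 3.99e-15). *chrnb1* had 22.2, 20.4 and 20.7 CPM against 12.8, 12.3 and 12.7 CPM (log2 fold change -0.75, standard error 0.06, adjusted p = 1.35e-11). *chrnd*, the delta subunit, had 53.9, 53.5 and 55.7 CPM against 30.4, 33.3 and 30.4 CPM (log2 fold change -0.79, standard error 0.04, adjusted p = 6.87e-16). In mammals these 3 subunits are shared by the embryonic and the mature muscle receptor. The log2 fold changes of the 3 genes lay between -0.79 and -0.61.

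The gamma and epsilon subunits take the same place in the mammalian receptor. In mammals gamma belongs to the receptor of embryonic muscle and epsilon to that of mature muscle. *chrne* fell from 17.9, 17.5 and 17.7 CPM to 6.08, 5.86 and 6.01 CPM (log2 fold change -1.57, standard error 0.07, adjusted p = 3.16e-17, and 1.65e-07 against a null of 2-fold). Leaving out any 1 library gave -1.57 to -1.55. *chrng* moved least, from 26.3, 23.2 and 25.0 CPM to 23.1, 21.1 and 18.1 CPM (log2 fold change -0.28, standard error 0.07, adjusted p = 0.000627). Its read counts are fractional in all 6 libraries, so some of its reads were divided among genes or transcripts.

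Set against the alpha subunit in the same library, a ratio from which library scaling cancels, *chrne* had 21.4, 21.5 and 20.3 reads per 100 *chrna1* reads in wildtype and 10.7, 10.5 and 11.3 in mutants. *chrng* had 31.4, 28.5 and 28.7 per 100 *chrna1* reads in wildtype and 40.8, 37.9 and 34.0 in mutants, the opposite direction. For each 100 *chrng* reads there were 71.4 ± 3.69 *chrne* reads in wildtype and 29.1 ± 3.64 in mutants (SD, n = 3 each). Relative to gamma and alpha1, epsilon was therefore the lower one in every mutant library. These ratios were chosen after the values were seen and carry no test. *chrnb1l*, which lies beside *chrnb1* on the same chromosome in RefSeq, had 8, 3 and 4 reads in wildtype and 1, 0 and 2 in mutants and was not tested.

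**Figure D5:**
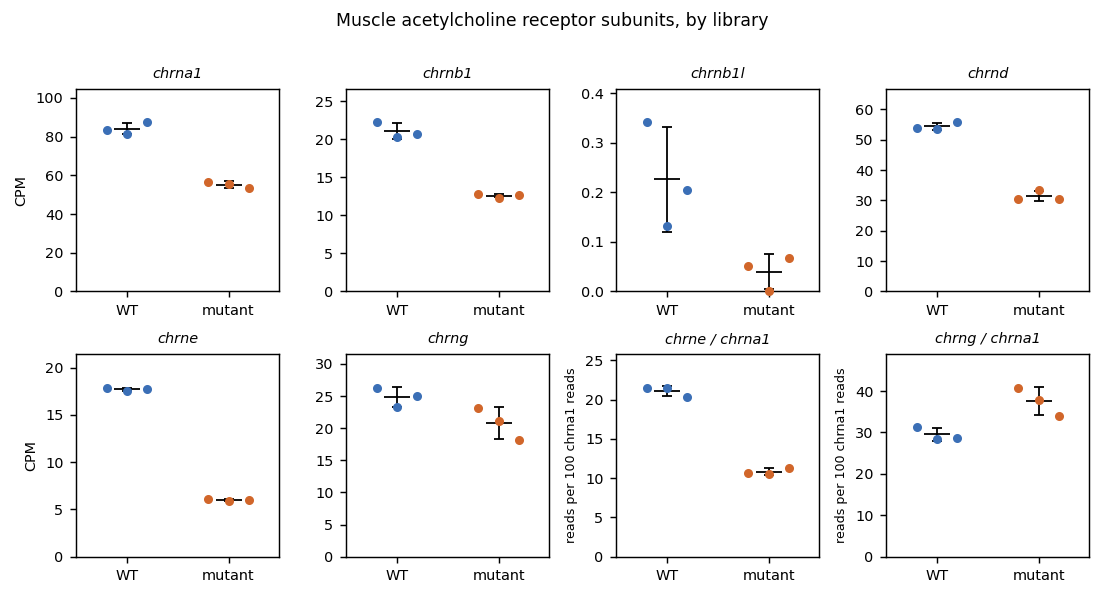
CPM by library (points) with mean and SD (bars) for the 6 muscle acetylcholine receptor subunits, and in the last panels the reads of *chrne* and *chrng* per 100 *chrna1* reads in the same library, all on linear axes from 0. All subunits are lower in the mutants (orange) than in wildtype (blue), whereas relative to *chrna1* the *chrne* ratio is lower and the *chrng* ratio higher.

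Other genes of the neuromuscular junction included several that were lower and several that were higher in the mutants. Of 28 on a list of junction and excitation genes, 18 had a row and all 18 were tested. By adjusted p 10 were lower and 6 higher, with a median log2 fold change of -0.28, and 3 passed both criteria, all lower. The 6 higher genes are 33.3% of the list, near the 32.6% of all tested genes, and the 10 lower ones are 55.6% against 33.6%. Past both criteria were 16.7% of the list and 8.36% of all tested genes. The 3 past both criteria encode voltage-gated channels of the fibre: *scn4ab*, a muscle sodium channel gene (log2 fold change -1.74, adjusted p = 4.82e-10), and *cacna1sb* (-1.34, adjusted p = 9.74e-20) and *cacna1sa* (-1.23, adjusted p = 1.44e-08), which encode the calcium channel that triggers contraction. *rapsn*, whose product rapsyn clusters acetylcholine receptors, had 12.1, 12.3 and 12.7 CPM in wildtype and 6.90, 6.25 and 7.87 CPM in mutants (log2 fold change -0.80, standard error 0.08, adjusted p = 2.3e-09). *musk*, the receptor kinase that organizes the junction, was higher instead, at 29.6 to 31.0 CPM in mutants against 21.9 to 23.2 CPM in wildtype (log2 fold change 0.44, standard error 0.05, adjusted p = 6.66e-09). Receptor subunits and *rapsn* thus fell while *musk* rose.

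Marker lists of muscle and neurons were mostly lower in the mutants as well. By adjusted p 33.6% of all tested genes were lower and 32.6% higher, and 8.36% passed both criteria. Of 20 skeletal muscle markers, 17 had a row. By adjusted p 2 (11.8%) were higher, *myod1* (log2 fold change 0.42, adjusted p = 1.14e-11) and *myog* (0.16, adjusted p = 4.82e-06). The other 15 (88.2%) were lower, and 12 (70.6%) passed both criteria, all lower. The 17 markers had a median log2 fold change of -1.58. Their summed level was 20080 to 20440 CPM in wildtype and 8025 to 8149 CPM in mutants, and every marker had reads. For each 10000 reads of these markers, muscle receptor reads numbered 99.9, 97.7 and 102 in wildtype and 158, 158 and 150 in mutants. The receptor reads were thus reduced less than the summed marker reads. This order depended on the marker used. The receptor sum had a log2 ratio of -0.68, mutant over wildtype. *smyhc1* (log2 fold change -0.55) and *acta1a* (-0.28) fell less than that, and *myod1* and *myog* rose. The other markers of the list fell further, and the order was not tested. In whole embryos, fewer cells of a type and less RNA per cell cannot be told apart, and the part of muscle content in the receptor result was not tested.

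All 16 neuron markers were tested and had reads. By adjusted p 13 (81.2%) were lower and 1 (*isl2a*) higher, against 33.6% and 32.6% of all tested genes. Both criteria were passed by 3 (18.8%), against 8.36% of all tested genes. The median log2 fold change of the 16 markers was -0.77, and their sum was 815 to 823.5 CPM in wildtype and 634.4 to 641 CPM in mutants. Neural receptor reads per 100 reads of the whole marker list were 8.87, 9.59 and 9.11 in wildtype and 7.37, 7.43 and 6.88 in mutants. The marker sum leans on *tubb5*, at 342.8 to 355.3 CPM in wildtype and 310.2 to 315.3 CPM in mutants (log2 fold change -0.16, adjusted p = 3.33e-07). The median change of the markers, -0.77, was close to the -0.76 of the 36 tested neural receptor genes. Whether receptors fell more than neuron markers was not tested. The ratio of receptor to marker reads depended on the marker used. Per 100 *elavl3* reads the values were 82.6, 88.8 and 80.8 against 64.5, 63.7 and 62.9, without overlap, but per 100 *elavl4* reads they were 212, 218 and 197 against 245, 228 and 199, which overlap. Of 9 neural progenitor markers with a row, 3 (33.3%) were lower and 4 (44.4%) higher by adjusted p. Their sum was 1783 to 1796 CPM in wildtype and 1837 to 1857 CPM in mutants. Of 8 genes of Rohon-Beard and other sensory neurons, which share *isl2a* and *isl2b* with the neuron list, 4 (50%) were lower and 2 (25%) higher. Among them *ntrk3a* passed both criteria (log2 fold change -1.20, adjusted p = 0.00106). With so few genes, neither the progenitor nor the sensory list stands apart from the shares of all tested genes. The summed level of the sensory list was higher in the mutants, at 88.8 to 90.4 CPM against 82.8 to 86.7 CPM, without overlap. This sum leans on *isl2a* (log2 fold change 0.30) and *cxcr4b* (0.34), the 2 genes higher by adjusted p. The 4 lower ones were *ntrk3a*, *kitb* (-0.83), *p2rx3b* (-0.79) and *p2rx3a* (-0.44). The median log2 fold change of the 8 genes was -0.27, so the sum does not show a rise of the list as a whole. The part of neuron content in the receptor result was not tested.

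Genes that make, load or clear transmitters were lower for several transmitters. Of 38 listed, 34 had a row and 25 were tested, 17 (68%) lower and 3 (12%) higher by adjusted p, against 33.6% and 32.6% of all tested genes, with a median log2 fold change of -0.52. Both criteria were passed by 8 (32%), all lower, against 8.36% of all tested genes. Many genes of this list lie at 0.298 to 4.65 CPM, the range of the neural receptors. Of all tested genes in that range, 21.5% passed both criteria, 17.1% with lower expression. *dbh*, which makes noradrenaline from dopamine, had 2.13, 1.76 and 2.31 CPM in wildtype and 0.360, 0.689 and 0.540 CPM in mutants (log2 fold change -1.92, standard error 0.24, adjusted p = 6.54e-08). *gad1b*, which makes GABA, had 4.82, 4.19 and 4.87 CPM against 1.70, 1.16 and 1.25 CPM (log2 fold change -1.78, standard error 0.16, adjusted p = 7.04e-11). *slc6a1b*, a GABA transporter gene, followed with a log2 fold change of -1.45 (adjusted p = 2.08e-07). *tph2*, which encodes a neuronal enzyme of serotonin synthesis, had -1.44 (adjusted p = 5e-06). *th*, its counterpart for dopamine, had -1.24 (adjusted p = 0.000492). The other tested *tph* gene, *tph1b*, was higher, at 5.39 to 5.87 CPM in mutants against 3.63 to 4.15 CPM in wildtype (log2 fold change 0.54, adjusted p = 0.000106). The tested *tph* genes thus did not share a direction. The glutamine synthetase gene *glula* was higher, at 188 to 194 CPM against 108 to 113 CPM (log2 fold change 0.79, adjusted p = 1.25e-20), while its paralog *glulb* was lower (-0.43, adjusted p = 2.06e-16).

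Proteins that anchor or assist receptors showed the same lean. Of 72 listed genes 32 had a row and 29 were tested, with a median log2 fold change of -0.47. By adjusted p 17 (58.6%) were lower and 4 (13.8%) higher, against 33.6% and 32.6% of all tested genes. Many genes of this list share the 0.298 to 4.65 CPM range of the neural receptors. Of all tested genes in that range, 21.5% passed both criteria, 17.1% with lower expression. The 7 list genes past both criteria (24.1%, near the 21.5% and against 8.36% of all tested genes) were all lower. Of these, *cnih2*, an AMPA receptor auxiliary subunit, changed most (log2 fold change -1.48, standard error 0.38, adjusted p = 0.00137). It had only 16, 13 and 12 reads in wildtype and 4, 3 and 9 in mutant libraries. At 0.206, 0.129 and 0.304 CPM the mutant libraries were under the filter level of about 0.436 CPM. *cnih2* thus passed the filter only through wildtype, and its place in this order is not secure. Next came *cbln1*, a secreted organizer of synapses (-1.34, adjusted p = 0.00456), with 19, 11 and 12 reads against 4, 10 and 4. The glutamate receptor scaffold gene *homer1b* followed (-1.25, adjusted p = 2.35e-10). *gphnb*, a gephyrin gene, had 1.66, 1.72 and 2.21 CPM in wildtype and 0.875, 0.905 and 0.608 CPM in mutants (log2 fold change -1.24, standard error 0.23, adjusted p = 2.58e-05). Its paralog *gphna* was also lower (log2 fold change -0.90, adjusted p = 5.1e-11), from 14.3 to 16.5 CPM in wildtype to 7.31 to 8.79 CPM in mutants. Both gephyrin genes and all 4 tested glycine receptor genes were lower in every mutant library than in any wildtype library, as 34.5% of all tested genes were. Of these, *gphna* was chosen after its values were seen, and *glrba* passed the filter only through wildtype.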

How the data were processed

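Labels of the samples gave each library's genotype and replicate number. The table deposited by the authors holds estimated counts for every gene in each of the 6 libraries, without normalization. The submitters' processing notes name RSEM 1.2.28, DESeq2 and FastQC and the builds GRCz10 and danRer7, and the aligner is not given in the sources used here. Deposited beside the counts are 3 columns of the authors' comparison, an adjusted p-value, a log2 fold change and a fold ratio, and these were not used.

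Counts were rounded, filtered with filterByExpr, scaled by TMM and tested with edgeR 4.0.16 (glmQLFit, glmQLFTest; limma 3.58.1, R 4.3.3) with genotype as the only factor. Python 3.11.15, pandas 2.3.3, numpy 2.4.6 and matplotlib 3.10.9 were used for plots. The standard error is the size of the log2 fold change over the square root of F. All members could be named, and related genes only where past both criteria, the 5 largest per list. Chosen after their values were seen were *rapsn*, *musk*, *gphna*, *glula*, *glulb*, *tph1b*, *myod1*, *myog*, *tubb5*, *cxcr4b*, *kitb*, *p2rx3a*, *p2rx3b* and the 2 rows under other names. Members, lists and comparisons were chosen with earlier results of these data known. Alternatives were other scalings, DESeq2 1.42.0, filters, unrounded counts, a replicate block, other criteria and each library left out, and an assumed variation between pools, which was added after seeing the data.

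In simulated data with the dispersion found here (0.000343), 96 of 100 genes changed 3-fold passed both criteria among 12384, and 91 of 100 changed 1.5-fold had an adjusted p under 0.05. With a dispersion of 0.04 these were 93 and 11 among 12368. The changed genes were drawn at random from all tested genes, which had a median level of 18.6 CPM. Tested members had a median of 1.27 CPM, and the shares were not computed for genes at that level. Replicates of one genotype differed by more than sampling noise (chi-square per degree of freedom 1.5 to 1.97), and none was counted as a duplicate. No protein or promoter sequence was used here. Values of some members are not reported here.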

Additional observations from a re-analysis of the deposited data

How the results depend on the processing

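The 17 receptor genes past both criteria kept their direction under each alternative that gave them a value. *chrm5a*, *gabrz*, *glrba*, *drd2b*, *drd4-rs* and *drd4a* had none under the filter of at least 10 counts in every library. With 16 to 20 called as each library was left out (15 to 19 neural, 1 muscle), 16 by DESeq2, 16 with total count scaling and 22 without the filter, the count moved by less than 1.5 times, and the count over all genes lay between 1063 and 1113 with a library left out. At least 10 counts in every library left 11 receptor genes (10 neural). A null of 2-fold left 6 (5 neural) and 502 of all genes. A limit of 1.5-fold gave 2315 genes in all and 4 muscle subunits, and no filter gave 2 muscle subunits. An assumed coefficient of variation of 0.2 between pools left 3 muscle subunits lower by adjusted p. With 0.4, edgeR's likelihood ratio test left 263 genes in all and 3 receptor genes, *chrm5a*, *gabrz* and *gria3b*, in 3 classes, of which 2 neural genes were lower by adjusted p, and 0 muscle subunits, 1 of which had an unadjusted p under 0.05. Of the related lists, transmitter synthesis (8 genes past both criteria) gave 13 at 1.5-fold and 2 against the null of 2-fold and with an assumed variation of 0.4. Anchoring proteins (7) gave 12 at 1.5-fold, 4 with at least 10 counts, and 0 both with edgeR's glmTreat (2 at an unadjusted p under 0.05) and with 0.4 (6 at an unadjusted p under 0.05). Junction genes (3) gave 6 at 1.5-fold and 1 with 0.4. Whether pools of embryos vary that much was not tested.

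Genes near no change switched sign. *grm4* was 0.017 under total count scaling and -0.096 to 0.063 as each library was left out. With a library left out *gria1a* was -0.15 to 0.069, *gria4a* -0.475 to 0.021, *gabbr2* -0.66 to 0.037, *chrna6* -0.089 to 0.48 and *chrna4b* -0.24 to 0.27. The cause was not tested. The replicate block gave 18 receptor genes and 1048 genes in all. Same-numbered libraries share only a number: their deviations correlated at 0.0647, 0.0431 and -0.0318, and not every library correlated best with its own number. These numbers, also used for the block, are those of the sample titles, and the deposited mutant columns carry other numbers. By the column numbers, wildtype replicates 2 and 3 pair with mutant replicates 1 and 2, with correlations of -0.105 and -0.0117.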
